A study of Mus musculus with 86 samples.

Results

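RNA-seq counts were compared in the gastrocnemius (GA), a calf muscle made mostly of fast fibres, between mice given dexamethasone (DEX) together with 400 mg/kg of the herbal extract JGT02 and mice given DEX with no extract. The comparison holds the 5 GA libraries labelled JGT02 at 400 mg/kg and the 4 GA libraries of the DEX group, grouped by their labels. These make 9 of the 86 libraries of the study and 9 of its 43 GA libraries. JGT, or Jakyak-gamcho-tang, is a decoction of peony root and liquorice root, and JGT02 combined 2 parts of peony with 1 part of liquorice. DEX is a synthetic glucocorticoid, and it was injected into the peritoneum at 25 mg/kg per day for 10 days in male C57BL/6N mice of 10 weeks. The extract followed by gavage 30 minutes after each injection, in a cellulose vehicle, whereas mice of the DEX and non-treated groups were gavaged with saline buffer, so the extract and its vehicle cannot be told apart. Further GA groups are set beside the comparison: JGT02 at 100 mg/kg with DEX (4 libraries, mice 2 to 5), JGT03 at 400 mg/kg with DEX (5 libraries), an extract with 1 part of peony to 1 part of liquorice, and non-treated mice that received no DEX (5 libraries). The statistical fit also held the other GA groups, all with DEX: JGT03 at 100 mg/kg, JGT04 at 100 and 400 mg/kg, and resveratrol at 200 mg/kg. JGT04 has 1 part of peony to 2 parts of liquorice. Each library came from the muscle of 1 mouse.

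Glucocorticoids bind a receptor that sits in the cytosol with heat shock proteins, enters the nucleus and switches genes on or off. In muscle a long course of them lowers protein synthesis and raises protein breakdown through ubiquitin ligases and autophagy, and fast fibres lose most mass. The receptor also drives genes that feed back on it, genes of sugar and fat storage, and several genes of the daily clock.

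Total counts were 23.4 to 30.5 M in the 5 JGT02 400 libraries and 27.7 to 30.9 M in the 4 DEX libraries. All 14 markers of skeletal muscle fibre were tested, and their summed level was 161342 to 174828 CPM (counts as a share of the scaled library total, in parts per M) with JGT02 400 and 158076 to 173743 CPM with DEX. Genes encoded by mitochondrial DNA took 12.2% to 13.2% of the counts with JGT02 400 and 13.5% to 14.1% with DEX, so that the groups did not overlap in this share. The library labelled GA JGT02 100 mouse 1 stands apart: its 10 highest genes took 9.81% of its counts, against 25.9% to 29.1% in the other 42 GA libraries, and it was kept out of the fit. With it, the common dispersion, the shared measure of spread, was 0.0379, and without it 0.00698. Within JGT02 400, mice 1 and 2 had the highest levels of slow-fibre genes, and counts without these 2 mice are given beside some of the results. Of 100 named calls 66 held without them.

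With JGT02 400, 442 genes were higher and 381 lower than with DEX, 823 of 14428 tested or 5.7% (3.06% higher and 2.64% lower), at an adjusted p of at most 0.05 in the quasi-likelihood test of edgeR. The changes were small: the median size among the 823 was 0.31 on the log2 scale, and 34 passed a log2 change of 1. In 567 of the 823 genes the CPM of the 2 groups did not overlap, and over all genes tested the groups did not overlap in 1020, or 7.07%. The balance of the 2 directions depended on the libraries: without DEX mouse 1, 428 were higher and 440 lower, and without a filter on low counts 284 were higher and 316 lower. The count rests on a spread estimated over 9 GA groups. It was 284 in a fit of the 2 groups alone and 117 with GA JGT02 100 mouse 1 in the fit. Without DEX mouse 2 it was 450, and without JGT02 400 mice 1 and 2 it was 525.

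**Figure D1:**
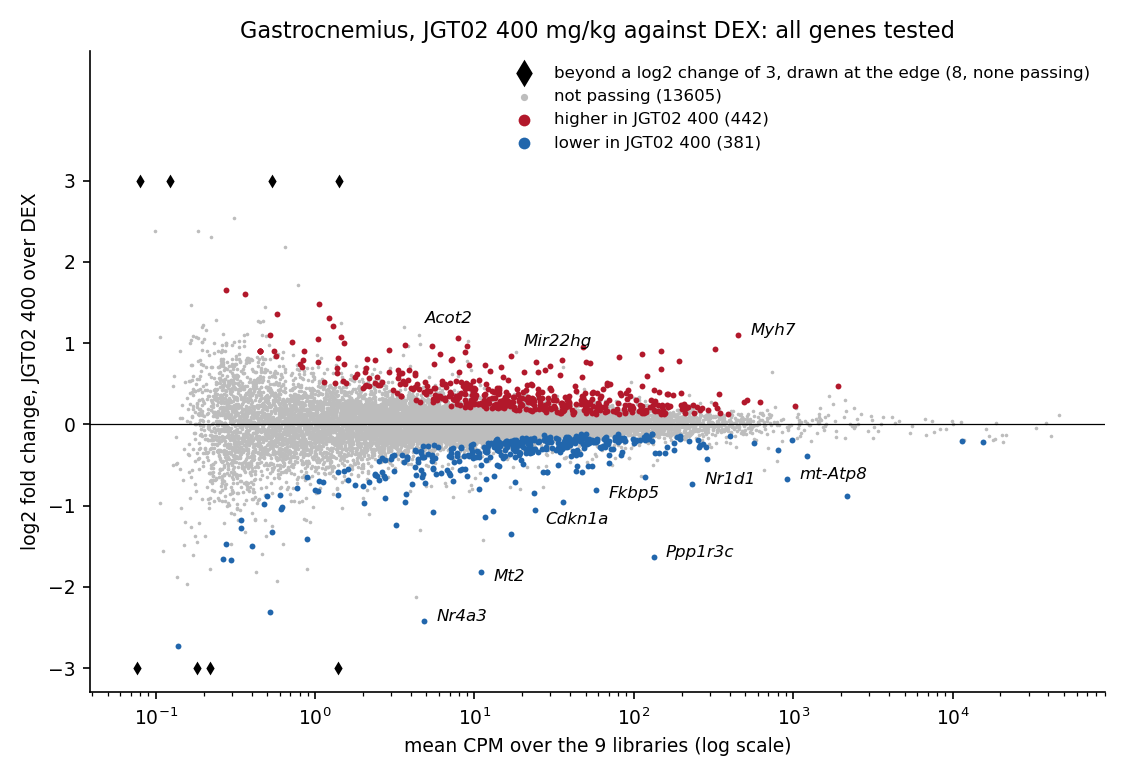
Each point is a gene, with its mean CPM over the 9 libraries on a log axis and the log2 fold change of JGT02 400 over DEX on the y axis. Red points are the 442 genes higher with JGT02 400, blue the 381 lower and grey the 13605 that did not pass. Black diamonds are 8 genes beyond a log2 change of 3, none of which passed. Passing genes lie close to 0 on the y axis at high levels, with Ppp1r3c, Mt2 and Nr4a3 far below it.

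Listed targets of the glucocorticoid receptor went both ways. Of 37 tested, 6 were lower with JGT02 400 than with DEX (Fkbp5, Zbtb16, Mt1, Mt2, Cdkn1a and Lpin1). Another 4 were higher (Arrdc3, Klf9, Ddit4 and Trim63) and 27 did not pass, where 2.64% of all genes were lower and 3.06% higher. The median log2 fold change of the list was 0.01, and that of all genes tested was 0.00. Without JGT02 400 mice 1 and 2, 6 were lower and 2 higher. Without DEX mouse 2, 6 were lower and 1 higher, and without DEX mouse 4, 7 were lower and 2 higher. In DEX alone against non-treated mice, which shares the DEX libraries, 8 of the 37 were higher, 7 lower and 22 did not pass. The median log2 fold change of the list there was -0.02.

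Fkbp5 (chr17:28399094-28517527, GRCm38, minus strand) encodes a co-chaperone that holds the glucocorticoid receptor in a state of low hormone affinity and is itself switched on by the receptor. It had 44.9, 46.0, 44.1, 39.1 and 42.4 CPM with JGT02 400 and 82.6, 75.2, 69.4 and 75.5 CPM with DEX. Every JGT02 400 mouse was below every DEX mouse, and the gene was 1.75-fold lower (log2 fold change -0.81 ± 0.14, adjusted p = 0.000212, n = 5 and 4). Non-treated mice spanned 52.5 to 86.5 CPM, so the JGT02 400 level was also below theirs (log2 fold change -0.59 ± 0.13, adjusted p = 0.000483). Zbtb16, a zinc-finger transcription factor that responds strongly to glucocorticoids, had 18.7, 19.6, 16.3, 14.98 and 17.2 CPM with JGT02 400 and 29.5, 26.4, 26.6 and 42.3 CPM with DEX. The groups did not overlap, and the level was 1.80-fold lower (log2 fold change -0.85 ± 0.14, adjusted p = 0.000136). In non-treated mice it averaged 31.7 ± 6.74 CPM. Lpin1, a phosphatidate phosphatase of fat synthesis, had 240.0 to 274 CPM with JGT02 400 and 299.6 to 393 CPM with DEX (log2 fold change -0.43 ± 0.06, adjusted p = 4.83e-06). Cdkn1a, the cell cycle inhibitor p21, had 18.7, 18.4, 13.3, 17.0 and 13.1 CPM with JGT02 400 and 33.5, 38.1, 38.7 and 23.6 CPM with DEX, again without overlap (log2 fold change -1.05 ± 0.20, adjusted p = 0.000952).

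The metallothionein genes Mt1 and Mt2 lie side by side on chromosome 8 and encode small proteins that bind zinc and copper. Both are switched on by metals through metal response elements and by glucocorticoids. Their promoter windows are shown because they changed together. The windows run from 250 bases before to 50 bases after the gene start on the plus strand, and come from RefSeq on GRCm38.p6 (Mt1 chr8:94178839-94179138, Mt2 chr8:94172368-94172667). Capitals mark metal response element cores, searched as TGCACNC and TGCGCNC on both strands.
Mt1: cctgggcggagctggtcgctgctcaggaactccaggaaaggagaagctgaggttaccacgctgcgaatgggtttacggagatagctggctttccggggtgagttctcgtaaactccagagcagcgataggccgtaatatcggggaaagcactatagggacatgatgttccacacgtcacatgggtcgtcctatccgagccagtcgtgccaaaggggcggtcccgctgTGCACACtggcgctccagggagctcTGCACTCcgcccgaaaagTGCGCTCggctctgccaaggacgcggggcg
Mt2: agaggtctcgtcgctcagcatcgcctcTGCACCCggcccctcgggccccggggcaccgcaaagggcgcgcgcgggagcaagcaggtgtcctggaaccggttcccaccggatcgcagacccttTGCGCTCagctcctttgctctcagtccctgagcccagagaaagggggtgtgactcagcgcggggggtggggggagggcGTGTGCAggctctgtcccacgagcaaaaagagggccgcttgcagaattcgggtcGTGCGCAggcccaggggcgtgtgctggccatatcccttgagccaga
The Mt1 window holds 3 matches and the Mt2 window 4. Of 32851 promoter windows of this length, 25.7% hold at least 1 match and 1.97% at least 3. Mt2 had 5.30, 4.34, 6.09, 4.85 and 5.50 CPM with JGT02 400 and 14.7, 29.6, 10.6 and 18.5 CPM with DEX. All JGT02 400 mice lay within a narrow band below the lowest DEX mouse, and the level was 3.53-fold lower (log2 fold change -1.82 ± 0.33, adjusted p = 0.000421). Of 16 tested acute phase and metallothionein genes these 2 passed. Mt1 had 24.9, 21.7, 26.9, 25.7 and 27.2 CPM with JGT02 400 and 54.7, 60.6, 42.7 and 38.0 CPM with DEX, without overlap (log2 fold change -0.96 ± 0.20, adjusted p = 0.00296). Among non-treated mice 1 library was far above the others for both genes, with 16.9, 11.4, 39.1, 17.5 and 12.5 CPM for Mt1 and 10.2, 4.76, 29.0, 12.3 and 4.75 CPM for Mt2.

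Among the targets that were higher, Arrdc3, an arrestin-like adaptor that directs receptors to degradation, had 32.6, 44.2, 43.6, 51.2 and 45.2 CPM with JGT02 400 and 34.7, 22.6, 25.1 and 17.7 CPM with DEX. JGT02 400 mouse 1 and DEX mouse 1 overlapped, and the others did not (log2 fold change 0.79 ± 0.15, adjusted p = 0.000575). Klf9, a transcription factor, averaged 151 ± 10.2 CPM with JGT02 400 and 129 ± 9.41 CPM with DEX (log2 fold change 0.23 ± 0.05, adjusted p = 0.00737), and its call ended without DEX mouse 2 (adjusted p = 0.0552). Ddit4, a stress-induced inhibitor of mTORC1, had low levels of 2.20 to 3.18 CPM with JGT02 400 and 1.39 to 2.15 CPM with DEX (log2 fold change 0.57 ± 0.17, adjusted p = 0.0308), and its call ended without any 1 of DEX mice 2 and 4 and JGT02 400 mouse 1 (adjusted p = 0.101 to 0.116). Other well-known targets of the receptor did not pass: Tsc22d3 (log2 -0.03 ± 0.12, adjusted p = 0.922), Klf15 (log2 0.27 ± 0.13, adjusted p = 0.241) and Pdk4 (log2 0.52 ± 0.41, adjusted p = 0.501). Pdk4, which blocks glucose oxidation, spanned 75.1 to 156 CPM with JGT02 400 and 47.2 to 101 CPM with DEX.

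Of 14 tested genes for corticosteroid receptors, their chaperones and hormone metabolism, 2 were higher and 2 lower, and without DEX mouse 4, 1 was higher and none lower. Nr3c1, the glucocorticoid receptor gene, had 112, 121, 124, 123 and 106 CPM with JGT02 400 and 108, 97.7, 97.2 and 95.9 CPM with DEX. DEX mouse 1 was above the lowest JGT02 400 mouse, the other DEX mice were below all of them, and the level was 1.18-fold higher (log2 fold change 0.24 ± 0.05, adjusted p = 0.00364). Nr3c2, the mineralocorticoid receptor gene, had 12.3, 12.9, 13.0, 11.8 and 11.8 CPM with JGT02 400 and 9.21, 8.85, 9.45 and 6.29 CPM with DEX, without overlap (log2 fold change 0.55 ± 0.13, adjusted p = 0.00715). Its call ended without DEX mouse 4 (adjusted p = 0.0537). The chaperone genes Hsp90aa1 and Fkbp4, whose proteins fold and carry the receptor, were lower at log2 -0.52 ± 0.15 (adjusted p = 0.0274) and -0.12 ± 0.04 (adjusted p = 0.0323). The Hsp90aa1 call ended without any 1 of DEX mice 3 and 4 and JGT02 400 mouse 4 (adjusted p = 0.0709 to 0.143), and the Fkbp4 call without any 1 of DEX mouse 4 and JGT02 400 mice 3 and 4 (adjusted p = 0.0584 to 0.0964). Hsp90aa1 shares 51.4% of its 31-base words with others, so its reads may be split among them.

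**Figure D2:**
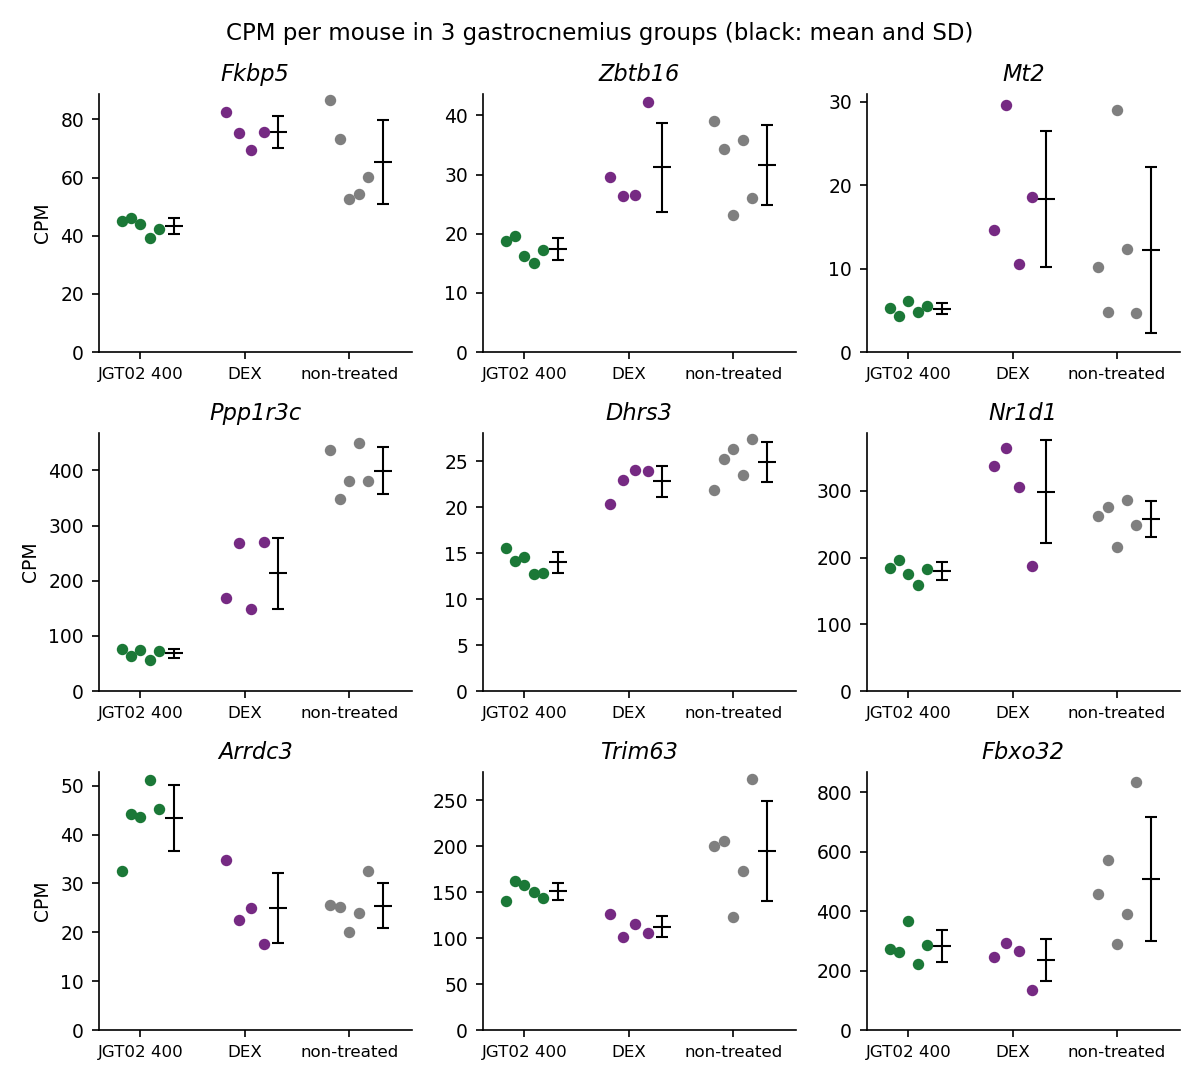
CPM of 9 genes, 1 point per mouse, in the JGT02 400 (green), DEX (purple) and non-treated (grey) groups of GA. The black bar to the right of each group is the mean with its SD. For Fkbp5, Zbtb16, Mt2, Ppp1r3c and Dhrs3 the green points lie below all purple points, and for Trim63 above them.

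Genes of muscle protein breakdown are read beside the 5.7% of all genes that passed. Of 26 tested ubiquitin ligase genes of muscle, 2 were higher and 2 lower, of 31 proteasome subunits none passed, and of 29 autophagy and lysosome genes 2 were lower. The median log2 fold changes of these lists were 0.00, 0.01 and 0.03. At an unadjusted p under 0.05 there were 4 proteasome genes, against 3002 of 14428 genes tested, and DESeq2 also passed no proteasome gene.

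Trim63 encodes MuRF1, the ligase that marks thick-filament proteins for breakdown. It had 139.8, 162, 158, 150.5 and 144 CPM with JGT02 400 and 127, 101, 116 and 105 CPM with DEX. The JGT02 400 mice were all above the DEX mice (log2 fold change 0.43 ± 0.12, adjusted p = 0.026), and both groups were under the non-treated mean of 195 ± 54.2 CPM. The call ended without any 1 of DEX mice 2 and 4 and JGT02 400 mice 2 and 3 (adjusted p = 0.0554 to 0.104). Fbxo32, the gene of the ligase atrogin-1, had 274, 262, 366, 221 and 287 CPM with JGT02 400 and 245, 295, 266 and 135 CPM with DEX. DEX mouse 4 was lowest, the other mice overlapped, and the difference did not pass (log2 fold change 0.26 ± 0.19, adjusted p = 0.4664). Non-treated mice had 457, 573, 288, 391 and 835 CPM, and 4 of the 5 were above all mice of both groups. Cblb, a ligase that targets insulin receptor substrate, was at log2 0.25 ± 0.08 (adjusted p = 0.042), a call that ended with 8 of 9 libraries left out in turn (adjusted p = 0.0529 to 0.121). Asb5, a substrate adaptor of ligase complexes, had 167, 159, 153, 156 and 165 CPM with JGT02 400 and 184, 179.8, 188 and 247 CPM with DEX (log2 fold change -0.32 ± 0.08, adjusted p = 0.0177). DEX mouse 4 was well above the other DEX mice, and without it the call ended (adjusted p = 0.158). Ubb, a ubiquitin gene that shares 50.3% of its 31-base words with others, was the other lower member (log2 -0.20 ± 0.06, adjusted p = 0.0469), and its call ended with 7 of 9 libraries left out in turn (adjusted p = 0.0696 to 0.183).

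Among autophagy genes, Gabarap, which anchors cargo to the autophagosome membrane, averaged 102 ± 2.56 CPM with JGT02 400 and 117 ± 10.6 CPM with DEX (log2 fold change -0.19 ± 0.05, adjusted p = 0.00925), and the call ended without DEX mouse 2 (adjusted p = 0.0649). Optn, an autophagy receptor, averaged 71.9 ± 2.89 CPM with JGT02 400 and 81.9 ± 3.74 CPM with DEX (log2 fold change -0.19 ± 0.05, adjusted p = 0.0169). That call ended without DEX mouse 1 or JGT02 400 mouse 4 (adjusted p = 0.0541 to 0.0548).

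Among 31 tested growth regulators Ddit4, described above, was the one that passed. Mstn, the gene of myostatin, which limits muscle mass, had 91.4, 106, 104, 92.8 and 104 CPM with JGT02 400 and 120.1, 118, 119.6 and 119 CPM with DEX. The groups did not overlap, but the difference missed the threshold (log2 fold change -0.26 ± 0.09, adjusted p = 0.0939). Igf1, a growth factor of muscle, had 17.5, 23.7, 19.5, 18.2 and 26.1 CPM with JGT02 400 and 22.2, 23.2, 22.6 and 52.2 CPM with DEX, where DEX mouse 4 was far above the others (log2 fold change -0.52 ± 0.22, adjusted p = 0.163). Ppargc1a, a coactivator of mitochondrial genes, and Sirt1, a deacetylase, were at log2 -0.04 ± 0.08 (adjusted p = 0.822) and 0.04 ± 0.08 (adjusted p = 0.807). FoxO factors switch on atrophy genes. Of 20 tested factors and targets Foxo6 was higher and Cdkn1a lower, with a median of 0.09, and Foxo1 and Foxo3 did not pass (log2 0.05 ± 0.06, adjusted p = 0.688, and log2 0.07 ± 0.06, adjusted p = 0.575). Foxo6os, annotated as an antisense transcript, had 8.001, 10.3, 7.62, 8.87 and 8.98 CPM with JGT02 400 and 5.39, 4.97, 3.95 and 5.86 CPM with DEX, without overlap (log2 fold change 0.79 ± 0.14, adjusted p = 0.000396). Foxo6 itself was at log2 0.49 ± 0.15 (adjusted p = 0.042), a call that ended with 7 of 9 libraries left out in turn (adjusted p = 0.0531 to 0.154). In the GENCODE vM21 annotation the pair lie on opposite strands, and neither has exons of another gene over its own. The annotation used for counting is not given.

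**Figure D3:**
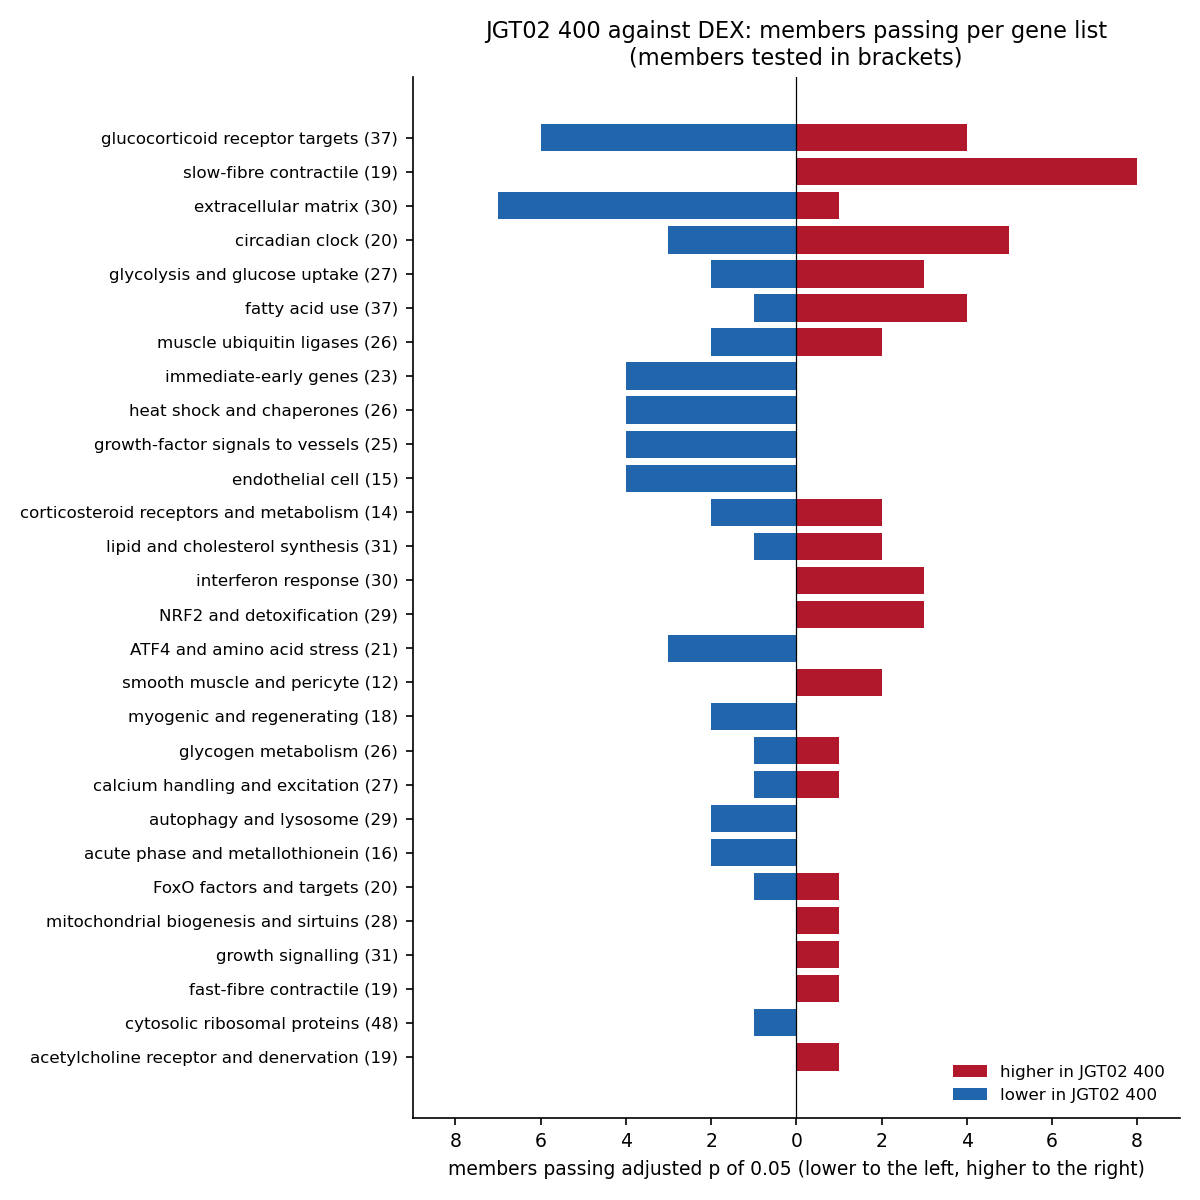
Number of members of each gene list that passed an adjusted p of 0.05 in JGT02 400 against DEX, higher to the right in red and lower to the left in blue, with the number tested in brackets. Lists with no passing member are not drawn. The slow-fibre list reaches 8 higher and the extracellular matrix list 7 lower, and the immediate-early, heat shock and endothelial lists have lower members only.

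Glycogen storage was represented by 1 large change. Ppp1r3c (chr19:36731731-36736653, GRCm38, minus strand) encodes a subunit that brings protein phosphatase 1 to glycogen and so promotes its synthesis. It had 76.8, 63.1, 74.0, 57.0 and 72.7 CPM with JGT02 400 and 168, 268, 148 and 269.7 CPM with DEX. The DEX mice fell into a higher and a lower pair, and every JGT02 400 mouse was under all of them, 3.11-fold lower (log2 fold change -1.64 ± 0.18, adjusted p = 1.77e-07). Non-treated mice had 437, 349, 381, 449 and 380.3 CPM, so the order of the means was JGT02 400, DEX and non-treated from low to high. Among the 26 tested glycogen genes the other one that passed was Epm2a, the glycogen phosphatase laforin, at 92.5 ± 3.46 CPM with JGT02 400 and 83.4 ± 2.47 CPM with DEX (log2 fold change 0.15 ± 0.04, adjusted p = 0.0227). That call ended without any 1 of DEX mice 2 and 4 and JGT02 400 mouse 3 (adjusted p = 0.0621 to 0.106).

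Of 27 tested genes of glucose uptake and glycolysis, 3 were higher (Slc16a1, Tbc1d1 and Hk2) and 2 lower (Hk1 and Gapdh). Slc16a1, the lactate carrier MCT1, had 33.7, 37.4, 31.3, 36.8 and 30.4 CPM with JGT02 400 and 26.2, 22.3, 23.2 and 29.3 CPM with DEX, without overlap (log2 fold change 0.43 ± 0.08, adjusted p = 0.000413). Tbc1d1, which controls the traffic of glucose transporters, had 39.9, 61.9, 61.6, 57.3 and 56.7 CPM with JGT02 400 and 40.1, 31.9, 37.4 and 38.8 CPM with DEX. JGT02 400 mouse 1 lay among the DEX mice and the other 4 above them (log2 fold change 0.58 ± 0.14, adjusted p = 0.00679). The hexokinase genes Hk2 and Hk1, which trap glucose in the cell, were at log2 0.25 ± 0.07 (adjusted p = 0.0379) and -0.27 ± 0.08 (adjusted p = 0.0453), and each call ended with 7 of 9 libraries left out in turn (adjusted p = 0.0562 to 0.2 for Hk2 and 0.0616 to 0.132 for Hk1). Gapdh, a glycolytic enzyme that shares 27.2% of its 31-base words with others, was at log2 -0.21 ± 0.06 (adjusted p = 0.028). Its call ended with 4 of 9 libraries left out in turn (adjusted p = 0.0549 to 0.117).

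Of 37 tested genes of fatty acid use, 4 were higher and 1 lower, with a median log2 fold change of 0.09. Acot2, a mitochondrial acyl-CoA thioesterase, had 14.6, 8.79, 12.9, 8.24 and 7.01 CPM with JGT02 400 and 3.65, 4.83, 4.78 and 6.33 CPM with DEX. The lowest JGT02 400 mouse was above the highest DEX mouse, and the level was 2.10-fold higher (log2 fold change 1.07 ± 0.20, adjusted p = 0.000536). Acot2 shares 37.3% of its 31-base words with others, Acot1 among them. Hadhb, a subunit of the trifunctional enzyme of fat oxidation, averaged 266 ± 18.6 CPM with JGT02 400 and 229.5 ± 10.2 CPM with DEX (log2 fold change 0.21 ± 0.05, adjusted p = 0.00532). Its call held with any 1 library left out, but ended without JGT02 400 mice 1 and 2 and in a fit of the 2 groups alone. Hadhb shares 23.3% of its 31-base words with others. Lpl, the lipase that frees fatty acids from lipoproteins, averaged 561 ± 62.5 CPM with JGT02 400 and 454 ± 31.6 CPM with DEX (log2 fold change 0.30 ± 0.07, adjusted p = 0.00925), and its call ended without DEX mouse 2 (adjusted p = 0.0638). Acadvl, an acyl-CoA dehydrogenase, was at log2 0.19 ± 0.05 (adjusted p = 0.0192), a call that ended with 4 of 9 libraries left out in turn (adjusted p = 0.0595 to 0.134). Without JGT02 400 mice 1 and 2, 1 member of the list was higher, and without DEX mouse 2, 2 were. Ppard, a nuclear receptor for fatty acids, was the lower one, at 35.4, 36.8, 37.0, 35.4 and 39.7 CPM with JGT02 400 and 43.4, 48.2, 42.6 and 41.4 CPM with DEX, without overlap (log2 fold change -0.25 ± 0.06, adjusted p = 0.00539).

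In lipid synthesis 2 of 31 tested genes were higher (Gpam and Srebf1) and Lpin1 was lower. Gpam, the enzyme that starts triglyceride synthesis, had 93.9, 109, 112, 95.1 and 111 CPM with JGT02 400 and 83.5, 79.1, 90.3 and 73.8 CPM with DEX, without overlap (log2 fold change 0.35 ± 0.08, adjusted p = 0.00381). Srebf1, a transcription factor of lipid synthesis, was at log2 0.38 ± 0.11 (adjusted p = 0.0287), and its call ended without any 1 of DEX mice 1 and 4 and JGT02 400 mouse 3 (adjusted p = 0.0837 to 0.179). Aqp7, a channel that lets glycerol through, had 6.39, 5.80, 5.29, 5.28 and 6.03 CPM with JGT02 400 and 9.59, 8.12, 9.87 and 9.74 CPM with DEX. Both groups were narrow and apart, with a level 1.62-fold lower (log2 fold change -0.69 ± 0.11, adjusted p = 8.45e-05). Dhrs3, which reduces retinal to retinol, had 15.5, 14.2, 14.6, 12.8 and 12.9 CPM with JGT02 400 and 20.4, 22.9, 24.1 and 23.9 CPM with DEX. The groups were tight and apart, and the level was 1.63-fold lower (log2 fold change -0.71 ± 0.07, adjusted p = 1.74e-08).

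Slow-fibre genes were higher with JGT02 400, and mice 1 and 2 carried most of the difference. Of 19 tested slow-fibre contractile genes 8 were higher and none lower, with a median log2 fold change of 0.46. The summed CPM of the list was 7020, 5534, 3979, 4094 and 4355 in JGT02 400 mice 1 to 5, against 4437, 3221, 4239 and 3941 in DEX mice 1 to 4. Mice 1 and 2 of JGT02 400 were above all DEX mice and mice 3 to 5 lay within the DEX range. Without mice 1 and 2 no member passed and the median was 0.09. Without DEX mouse 2, or without JGT02 400 mouse 1, 1 member passed, and without DEX mouse 3, 5 did. Of 19 fast-fibre genes 1 was higher.

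Myh7, the gene of slow myosin, had 1105, 705, 395, 342 and 415 CPM with JGT02 400 and 397, 148, 262 and 298 CPM with DEX (log2 fold change 1.10 ± 0.26, adjusted p = 0.00733). JGT02 400 mice 3 to 5 were close to the highest DEX mouse. The call ended without DEX mouse 2 or JGT02 400 mouse 1 (adjusted p = 0.053 to 0.0549). Myl3, a slow myosin light chain, had 359, 177, 135, 126 and 136 CPM with JGT02 400 and 124, 64.9, 106 and 104 CPM with DEX. Its groups did not overlap (log2 fold change 0.91 ± 0.19, adjusted p = 0.00308), and the call held with any 1 library left out, but not without mice 1 and 2 together (log2 0.41, adjusted p = 0.117). Myl2, Atp2a2, the slow calcium pump, and Tpm3, slow tropomyosin, were at log2 0.78 ± 0.20 (adjusted p = 0.0133), 0.93 ± 0.23 (adjusted p = 0.0117) and 0.68 ± 0.21 (adjusted p = 0.0423). The calls of Myl2 and Atp2a2 ended without DEX mouse 2 or JGT02 400 mouse 1 (adjusted p = 0.0886 to 0.102 and 0.0764 to 0.0926), and that of Tpm3 with 5 of 9 libraries left out in turn (adjusted p = 0.0534 to 0.26). The fast myosins did not pass: Myh2 (log2 0.35 ± 0.14, adjusted p = 0.13), Myh1 (log2 0.20 ± 0.11, adjusted p = 0.312) and Myh4 (log2 0.12 ± 0.06, adjusted p = 0.298). Myosin genes share 22.9% to 37.9% of their 31-base words with others. Mylk4, a kinase in the fast-fibre list, had 1872, 2239, 2364, 2216 and 2265 CPM with JGT02 400 and 1518, 1422, 1716 and 1685 CPM with DEX, without overlap (log2 fold change 0.47 ± 0.10, adjusted p = 0.00482). In non-treated mice it averaged 1038 ± 259.5 CPM, so the order of means was JGT02 400, DEX and non-treated from high to low.

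**Figure D4:**
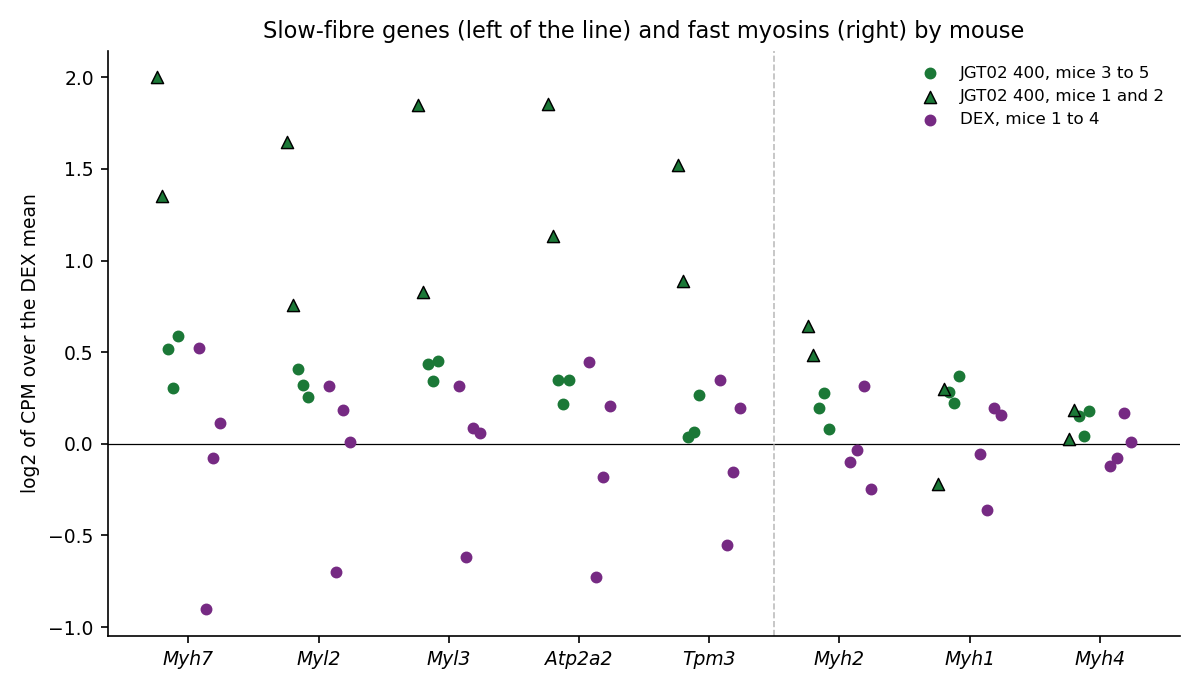
Log2 of the CPM over the DEX mean for 5 slow-fibre genes, left of the dashed line, and 3 fast myosins, right of it, with 1 point per mouse. Triangles are JGT02 400 mice 1 and 2, green circles mice 3 to 5 and purple circles the 4 DEX mice. The triangles lie above all other points for the slow-fibre genes, and DEX mouse 2 is the lowest purple point there.

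Endothelial, matrix and vessel-wall lists were examined together. Of 15 endothelial markers 4 were lower and none higher, with a median log2 fold change of -0.24, and of 30 extracellular matrix genes 7 were lower and 1 higher, also with a median of -0.24. The summed endothelial level was 324 to 398 CPM with JGT02 400 and 404 to 420 CPM with DEX, without overlap, and 476 to 489 CPM in non-treated mice. In bulk muscle RNA, fewer endothelial cells and less RNA per cell cannot be told apart. Of 12 smooth muscle and pericyte markers the potassium channel genes Kcnj8 and Abcc9 were higher (log2 0.25 ± 0.07, adjusted p = 0.0346, and log2 0.14 ± 0.04, adjusted p = 0.0497), calls that ended with 6 and 7 of 9 libraries left out in turn (adjusted p = 0.0573 to 0.236 and 0.0567 to 0.203). The smooth muscle and pericyte markers summed to 802 to 882 CPM with JGT02 400 and 806 to 865 CPM with DEX, with overlap. Fibroblast markers (12 tested) summed to 1066 to 1411 CPM with JGT02 400 and 1144 to 1361 CPM with DEX. Macrophage markers (12 tested) summed to 48.0 to 82.7 CPM with JGT02 400 and 65.2 to 104 CPM with DEX. Neither list had a passing member in edgeR, with 4 fibroblast and 2 macrophage genes at an unadjusted p under 0.05, while DESeq2 passed 1 fibroblast and no macrophage gene. Without JGT02 400 mice 1 and 2, 5 endothelial and 5 matrix genes were lower. With JGT02 400 mouse 5 left out 12 matrix genes were lower. With DEX mouse 4 left out 5 matrix genes were lower and 2 higher.

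Pecam1, an adhesion protein of endothelial junctions, had 44.9, 39.5, 32.3, 36.0 and 39.2 CPM with JGT02 400 and 48.6, 51.4, 52.8 and 47.6 CPM with DEX. The groups did not overlap (log2 fold change -0.38 ± 0.08, adjusted p = 0.00222), and non-treated mice stood higher still at 58.9 ± 2.42 CPM. Eng, a TGF-beta co-receptor of vessels, had 38.2, 39.0, 34.5, 34.1 and 38.1 CPM with JGT02 400 and 50.3, 50.3, 50.1 and 58.9 CPM with DEX, without overlap (log2 fold change -0.51 ± 0.09, adjusted p = 0.000298). Emcn, a surface sialomucin of veins and capillaries, averaged 8.05 ± 0.500 CPM with JGT02 400 and 10.5 ± 0.596 CPM with DEX (log2 fold change -0.38 ± 0.09, adjusted p = 0.0111). Tek, the angiopoietin receptor, was at log2 -0.34 ± 0.09 (adjusted p = 0.0241), and its call ended without any 1 of DEX mouse 2 and JGT02 400 mice 2 and 3 (adjusted p = 0.05001 to 0.113).

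Col4a1 and Col4a2, which encode the chains of basement membrane collagen and share a promoter region on opposite strands, moved alike. Col4a1 had 58.3, 63.2, 52.7, 56.1 and 66.0 CPM with JGT02 400 and 74.4, 87.7, 78.7 and 89.1 CPM with DEX (log2 fold change -0.48 ± 0.07, adjusted p = 3.06e-05). Col4a2 had 46.4, 49.1, 40.8, 42.2 and 51.9 CPM with JGT02 400 and 60.9, 66.6, 68.7 and 66.5 CPM with DEX (log2 fold change -0.51 ± 0.07, adjusted p = 2.21e-05). Neither gene's groups overlapped. Against non-treated mice DEX alone was lower too, by log2 -0.58 ± 0.07 for Col4a1 (adjusted p = 4.47e-08) and -0.40 ± 0.07 for Col4a2 (adjusted p = 6.32e-05), a comparison that uses the DEX libraries as well. The elastic fibre genes Fbn1, fibrillin, and Eln, elastin, averaged 10.7 ± 0.961 and 9.37 ± 0.709 CPM with JGT02 400, against 16.6 ± 2.12 and 14.9 ± 2.38 CPM with DEX. Both differences passed (Fbn1 log2 -0.63 ± 0.11, adjusted p = 0.00035, and Eln log2 -0.67 ± 0.11, adjusted p = 0.000179) and neither gene's groups overlapped. Their non-treated means were 37.7 ± 5.40 and 25.9 ± 5.16 CPM. Timp3, an inhibitor of matrix proteases, was the higher member, at 146, 129, 163, 136 and 127 CPM with JGT02 400 and 118, 114, 113 and 108 CPM with DEX (log2 fold change 0.31 ± 0.07, adjusted p = 0.00644). Of 25 genes of growth-factor signals to vessels 4 were lower, Notch4, Ednrb, Nos3 and Tek. Notch4, a Notch receptor of endothelium, was at log2 -0.39 ± 0.09 (adjusted p = 0.00975) and its call held with any 1 library left out. Ednrb, an endothelin receptor, was at log2 -0.44 ± 0.12 (adjusted p = 0.0238), a call that ended without DEX mouse 4 or JGT02 400 mouse 3 (adjusted p = 0.0657 to 0.273), and Nos3, endothelial nitric oxide synthase, at log2 -0.33 ± 0.10 (adjusted p = 0.0398), a call that ended with 8 of 9 libraries left out in turn (adjusted p = 0.0556 to 0.102). Without JGT02 400 mouse 3 that list had 1 lower member, and without any 1 of DEX mouse 4 and JGT02 400 mouse 2 it had 2.

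Of 20 tested clock genes 5 were higher and 3 lower. The clock is a loop in which CLOCK and its partner switch on repressors, and an outer loop in which factors bind D-box elements. Nr1d1, the repressor REV-ERB alpha, had 184, 196, 175, 159 and 184 CPM with JGT02 400 and 337, 365, 306 and 188 CPM with DEX. DEX mouse 4 lay among the JGT02 400 mice, the other 3 DEX mice were far above, and the level was 1.66-fold lower (log2 fold change -0.73 ± 0.11, adjusted p = 3.06e-05). Clock, the activator, had 22.4, 22.1, 21.8, 21.3 and 21.5 CPM with JGT02 400 and 26.4, 30.4, 24.8 and 26.1 CPM with DEX, without overlap (log2 fold change -0.30 ± 0.06, adjusted p = 0.00276). Cry2, a repressor, had 66.6, 60.9, 69.4, 62.9 and 67.3 CPM with JGT02 400 and 51.0, 50.2, 58.4 and 41.3 CPM with DEX, also without overlap (log2 fold change 0.38 ± 0.08, adjusted p = 0.00249). In non-treated mice Cry2 averaged 30.4 ± 3.57 CPM. Cry1, its close relative, was at log2 0.28 ± 0.09 (adjusted p = 0.0496) and was named after its value was seen. Without DEX mouse 2, or without JGT02 400 mouse 4, 1 clock gene was higher and 3 were lower, and without DEX mouse 4, 1 was higher and 2 lower. With any 1 of the other 6 libraries left out, 2 or 3 were higher and 3 lower. The hour at which each mouse was killed is not given in the sources used here.

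Per3, a period repressor, is shown with its promoter window because factors of the outer loop changed beside it. The window (chr4:151044616-151044915, minus strand, RefSeq on GRCm38.p6) is printed in the direction of the gene, with capitals at D-box matches, searched as TTATGTAA on both strands.
Per3: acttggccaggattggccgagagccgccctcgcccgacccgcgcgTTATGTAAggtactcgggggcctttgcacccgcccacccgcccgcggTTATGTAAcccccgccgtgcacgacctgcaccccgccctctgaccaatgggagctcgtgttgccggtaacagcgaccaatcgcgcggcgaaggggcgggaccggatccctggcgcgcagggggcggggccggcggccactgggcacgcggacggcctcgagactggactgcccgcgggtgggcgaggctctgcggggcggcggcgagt
It holds 2 matches, and 0.938% of the 32851 windows hold at least 1 and 0.0213% at least 2. Per3 had 49.4, 43.8, 53.3, 52.1 and 46.4 CPM with JGT02 400 and 34.8, 36.3, 42.9 and 28.1 CPM with DEX, without overlap (log2 fold change 0.47 ± 0.13, adjusted p = 0.0229). Its call ended without any 1 of DEX mice 2 and 4 and JGT02 400 mice 3 and 4 (adjusted p = 0.0522 to 0.11). Nfil3, a D-box repressor, averaged 12.0 ± 0.790 CPM with JGT02 400 and 17.2 ± 2.02 CPM with DEX (log2 fold change -0.51 ± 0.13, adjusted p = 0.0152), a call that ended without DEX mouse 4 (adjusted p = 0.0656). Hlf, a D-box activator, averaged 33.7 ± 2.43 CPM with JGT02 400 and 28.9 ± 0.835 CPM with DEX (log2 fold change 0.22 ± 0.07, adjusted p = 0.0481), and its call ended with 8 of 9 libraries left out in turn (adjusted p = 0.0582 to 0.132). Bhlhe41, a further clock repressor, averaged 101 ± 3.64 CPM with JGT02 400 and 87.8 ± 3.96 CPM with DEX (log2 fold change 0.19 ± 0.05, adjusted p = 0.0255), a call that ended with 5 of 9 libraries left out in turn (adjusted p = 0.0553 to 0.103).

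Of 26 tested heat shock and chaperone genes 4 were lower, of 21 genes of the ATF4 amino acid response 3, and of 23 immediate-early genes 4, with none higher in these lists and medians of -0.14, -0.08 and -0.21. Without DEX mouse 4 no heat shock gene passed, without JGT02 400 mouse 4, 2 did, and without DEX mouse 1, 7 did. Of the immediate-early genes 1 passed without DEX mouse 2, and 2 passed without DEX mouse 4 or without JGT02 400 mouse 1. Without JGT02 400 mouse 1, or without JGT02 400 mouse 3, 1 gene of the ATF4 list passed.

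Nr4a3 (chr4:48045153-48086447, GRCm38, plus strand), an orphan nuclear receptor induced by exercise and adrenergic signals, had 1.88, 1.65, 2.12, 1.10 and 1.59 CPM with JGT02 400 and 10.5, 2.87, 3.00 and 18.98 CPM with DEX. DEX mice 1 and 4 were high, DEX mice 2 and 3 just above the JGT02 400 mice, and the level was 5.36-fold lower (log2 fold change -2.42 ± 0.34, adjusted p = 1.32e-05). Its range was 1.14 to 2.03 CPM with JGT02 100, 1.97 to 2.93 CPM with JGT03 400 and 0.841 to 2.35 CPM in non-treated mice. DEX mice 1 and 4 were above every mouse of the other 4 groups. Junb, an AP-1 subunit, had 6.02, 7.72, 8.76, 6.81 and 8.72 CPM with JGT02 400 and 7.44, 30.7, 11.4 and 17.1 CPM with DEX. DEX mouse 2 was highest and DEX mouse 1 lay among the JGT02 400 mice (log2 fold change -1.14 ± 0.28, adjusted p = 0.0117), and without DEX mouse 2 the call ended (adjusted p = 0.181). Zfp36, which speeds the decay of inflammatory mRNA, was at log2 -0.64 ± 0.17 (adjusted p = 0.0204), and its call ended without any 1 of DEX mice 2 and 4 and JGT02 400 mouse 1 (adjusted p = 0.0541 to 0.18). Egr1, a growth-induced factor, was at log2 -1.34 ± 0.37 (adjusted p = 0.0212), with overlapping groups and a call that ended without any 1 of DEX mice 2 and 4 and JGT02 400 mouse 1 (adjusted p = 0.0616 to 0.108). Atf4, the factor of the amino acid response, had 131, 126, 135, 122 and 125 CPM with JGT02 400 and 161, 177, 160.3 and 153 CPM with DEX, without overlap (log2 fold change -0.35 ± 0.06, adjusted p = 0.000239). Slc3a2, a subunit of amino acid carriers, and Shmt2, an enzyme of serine use, were at log2 -0.20 ± 0.05 (adjusted p = 0.0219) and -0.16 ± 0.05 (adjusted p = 0.0346), and their calls ended with 3 and 4 of 9 libraries left out in turn (adjusted p = 0.0501 to 0.159 and 0.0512 to 0.172). The chaperone genes Hspa8 and Stip1, a co-chaperone of HSP90, were at log2 -0.31 ± 0.07 (adjusted p = 0.00836) and -0.21 ± 0.05 (adjusted p = 0.0115), and both calls ended without DEX mouse 4 (adjusted p = 0.072 and 0.0525). Hspa8 shares 43.5% of its 31-base words with others.

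Of 29 tested genes of detoxification under NRF2 3 were higher and none lower, and of 30 interferon-response genes 3 were higher and none lower, with medians of 0.04 and 0.29. Aox1, an aldehyde oxidase, had 28.1, 29.3, 26.3, 28.4 and 29.9 CPM with JGT02 400 and 20.8, 20.1, 21.2 and 22.1 CPM with DEX. The groups were apart (log2 fold change 0.43 ± 0.07, adjusted p = 5.38e-05). Nqo1, a quinone reductase, and Gsta4, a glutathione transferase, averaged 17.4 ± 1.47 and 5.66 ± 0.365 CPM with JGT02 400, against 13.8 ± 0.361 and 3.94 ± 0.352 CPM with DEX. Both passed without overlap (Nqo1 log2 0.34 ± 0.08, adjusted p = 0.00617, and Gsta4 log2 0.53 ± 0.09, adjusted p = 0.000422). Nqo1 did not pass without JGT02 400 mice 1 and 2 (adjusted p = 0.0797). Ifih1, a sensor of viral RNA, was at log2 0.41 ± 0.10 (adjusted p = 0.0111) from 5.16 to 6.07 CPM with JGT02 400 and 3.89 to 4.67 CPM with DEX. Ifit3 was at log2 0.87 ± 0.23 (adjusted p = 0.0192), with overlapping groups and a call that ended without any 1 of DEX mice 2 and 4 and JGT02 400 mouse 4 (adjusted p = 0.0648 to 0.0664). Ifit2 was at log2 0.67 ± 0.18 (adjusted p = 0.0238), a call that ended without any 1 of DEX mice 3 and 4 and JGT02 400 mouse 4 (adjusted p = 0.0662 to 0.0864). Ifit3 shares 61.8% of its 31-base words with others. Without DEX mouse 4, or without JGT02 400 mouse 4, 1 interferon gene passed.

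Mir22hg (chr11:75461539-75466676, GRCm38, plus strand), the host transcript of microRNA miR-22, had 23.2, 19.2, 21.5, 22.2 and 18.7 CPM with JGT02 400 and 14.2, 10.9, 12.6 and 9.31 CPM with DEX. Every JGT02 400 mouse was above every DEX mouse, 1.79-fold higher (log2 fold change 0.84 ± 0.11, adjusted p = 3.16e-06), and non-treated mice averaged 12.2 ± 1.07 CPM. The mature microRNAs are cut from a hairpin inside this transcript (chr11:75463734-75463755 and chr11:75463772-75463793, RefSeq on GRCm38.p6). They are shown because the host stood among the larger rises, with their seeds, bases 2 to 8, in capitals, and their own levels were not measured here.
mmu-miR-22-5p: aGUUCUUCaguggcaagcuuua
mmu-miR-22-3p: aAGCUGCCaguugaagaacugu

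The other large rises without overlap came from unrelated families. Atcay, caytaxin, had 5.27 to 8.59 CPM with JGT02 400 and 3.21 to 3.92 CPM with DEX (log2 fold change 0.96 ± 0.16, adjusted p = 0.000179). Npr3, the clearance receptor of natriuretic peptides, had 8.87 to 14.4 CPM with JGT02 400 and 5.00 to 7.85 CPM with DEX (log2 fold change 0.89 ± 0.21, adjusted p = 0.00644). Prkg1, the kinase that cGMP activates, had 9.96 to 12.8 CPM with JGT02 400 and 6.07 to 7.52 CPM with DEX (log2 fold change 0.73 ± 0.13, adjusted p = 0.00045). Klhl33, a kelch-like protein, had 48.9, 70.2, 55.1, 66.7 and 65.2 CPM with JGT02 400 and 39.2, 31.4, 40.5 and 32.9 CPM with DEX (log2 fold change 0.77 ± 0.11, adjusted p = 9.53e-06). Hs3st5, a heparan sulphate sulphotransferase, and Zfp503, a zinc-finger repressor, were at log2 0.80 ± 0.11 (adjusted p = 1.48e-05) and 0.77 ± 0.15 (adjusted p = 0.001). Dusp10, a phosphatase of stress kinases, was at log2 0.76 ± 0.21 (adjusted p = 0.0235), a call that ended without any 1 of DEX mice 2 and 4 and JGT02 400 mouse 2 (adjusted p = 0.064 to 0.0905). Fabp3-ps1, a pseudogene that shares 75% of its 31-base words with others, was at log2 0.74 ± 0.18 (adjusted p = 0.0108), a call that ended without DEX mouse 2 or JGT02 400 mouse 1 (adjusted p = 0.051 to 0.057).

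Among the falls, Gpr56, an adhesion receptor, had 9.40, 7.79, 7.24, 7.47 and 8.57 CPM with JGT02 400 and 12.7, 13.9, 14.0 and 15.6 CPM with DEX (log2 fold change -0.80 ± 0.10, adjusted p = 2.98e-06). Banp, a DNA-binding nuclear protein, had 3.42, 3.88, 3.01, 3.95 and 4.13 CPM with JGT02 400 and 7.37, 5.67, 7.78 and 10.2 CPM with DEX (log2 fold change -1.07 ± 0.16, adjusted p = 4.05e-05). Neither gene overlapped between the groups. The mitochondrially encoded mt-Atp8, a subunit of ATP synthase, had 652, 873, 611, 814 and 675 CPM with JGT02 400 and 933, 1060.4, 1149.7 and 1494 CPM with DEX (log2 fold change -0.68 ± 0.17, adjusted p = 0.0107), beside the lower mitochondrial share of counts given above. Its call ended without DEX mouse 4 (adjusted p = 0.0696). The part of the mitochondrial share in this difference was not tested.

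The dose was addressed by setting JGT02 400 against JGT02 100, 5 against 4 libraries, and the JGT02 400 libraries are those used above. At 400 mg/kg 100 genes were higher and 63 lower, 163 of 14428 or 1.13% (0.693% higher and 0.437% lower). Without JGT02 100 mouse 2 the count was 69, without JGT02 100 mouse 3 it was 95, and DESeq2 gave 253.

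Calls that held with any 1 library left out are given first. Cdkn1a averaged 16.1 ± 2.72 CPM at 400 mg/kg and 37.1 ± 12.4 CPM at 100 mg/kg (log2 fold change -1.20 ± 0.20, adjusted p = 0.001). Fkbp5 averaged 43.3 ± 2.71 CPM at 400 mg/kg and 71.3 ± 7.60 CPM at 100 mg/kg (log2 fold change -0.72 ± 0.14, adjusted p = 0.00317). Ppp1r3c averaged 68.7 ± 8.34 CPM at 400 mg/kg and 127 ± 30.0 CPM at 100 mg/kg (log2 fold change -0.89 ± 0.18, adjusted p = 0.00532). Foxo6os and Foxo6 were higher at 400 mg/kg (log2 1.03 ± 0.14, adjusted p = 9.57e-05, and log2 0.78 ± 0.16, adjusted p = 0.00532), as was Mir22hg (log2 0.53 ± 0.11, adjusted p = 0.00532). Dhrs3 and Fbn1 were lower (log2 -0.51 ± 0.07, adjusted p = 9.2e-05, and log2 -0.62 ± 0.11, adjusted p = 0.00199). Mir22hg, Dhrs3 and Fbn1 were added from the genes named against DEX, outside the naming rule for this comparison. Calls of Mt2 (log2 -1.33 ± 0.33, adjusted p = 0.0328), Mt1 (log2 -0.80 ± 0.21, adjusted p = 0.0403), Myh7 (log2 1.06 ± 0.26, adjusted p = 0.0283), Tpm3 (log2 0.84 ± 0.21, adjusted p = 0.0311) and Myl3 (log2 0.76 ± 0.19, adjusted p = 0.0394) ended in 5 or more of the 9 fits that left 1 library out, and without JGT02 400 mice 1 and 2.

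A change in the mix of roots was addressed by setting JGT02 400 against JGT03 400, 5 against 5 libraries. Of 14428 genes 2 passed, or 0.0139%, both higher with JGT02: Ifi30, a lysosomal reductase (log2 0.69 ± 0.12, adjusted p = 0.0306), and Etfdh, an electron carrier of fat oxidation (log2 0.20 ± 0.04, adjusted p = 0.0459). Between 0 and 2 genes passed with 1 library left out, 14 passed in DESeq2, and 1029 had an unadjusted p under 0.05. The Ifi30 call ended in 7 and the Etfdh call in 8 of the 10 fits that left 1 library out. The 823 genes that differed from DEX, a comparison with the same JGT02 400 libraries, were read as well. In 87.1% of them the 95% interval of JGT02 400 minus JGT03 400 lay within a log2 of 0.5 on either side of 0. That bound is wider than the median size of their change from DEX, a log2 of 0.31. The share therefore cannot show that the 2 extracts acted alike. For Fkbp5 the interval of JGT02 400 minus JGT03 400 was -0.41 to 0.13, for Dhrs3 -0.13 to 0.14, and for Ppp1r3c -0.76 to -0.08 (adjusted p = 0.852, 0.999 and 0.595). For the slow-fibre genes Myh7 and Myl3 it was 0.51 to 1.48 and 0.45 to 1.18, and neither passed over all genes (adjusted p = 0.208 and 0.208).

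Against non-treated mice, JGT02 400 had 2298 genes higher and 2163 lower, 4461 or 30.9% (15.9% higher and 15% lower). DEX alone against non-treated mice had 1910 higher and 1901 lower, 3811 or 26.4% (13.2% in each direction), and it shares its DEX libraries with the main comparison and its non-treated libraries with this one. The libraries of JGT02 400 and non-treated mice did not overlap in 19.2% of genes, and the 5 largest rises and 5 largest falls among them are given beside the DEX values. Lcn2, lipocalin 2, was at log2 5.59 ± 0.25 against non-treated mice in JGT02 400 and 5.60 ± 0.26 in DEX, and at -0.01 ± 0.18 in JGT02 400 over DEX (adjusted p = 0.982). The MHC class II chaperone gene Cd74 was at log2 -3.01 ± 0.23 in JGT02 400 and -2.78 ± 0.24 in DEX, and at -0.23 ± 0.26 in JGT02 400 over DEX (adjusted p = 0.672). Arntl, the partner of CLOCK, was at log2 -2.66 ± 0.19 in JGT02 400 and -2.18 ± 0.20 in DEX, and at -0.48 ± 0.22 in JGT02 400 over DEX (adjusted p = 0.19). All 6 values against non-treated mice passed. The other rises were Pnmt (log2 4.09 in JGT02 400 and 4.05 in DEX), Orm1 (3.75 and 3.88), Gnmt (2.98 and 2.97) and Tusc5 (2.15 and 1.84). The other falls were H2-Ab1 (log2 -2.95 in JGT02 400 and -2.69 in DEX), H2-Aa (-2.76 and -2.90) and Ppp1r3c (-2.54 and -0.90). Each of these passed, and of the 10 genes Ppp1r3c was the one that passed in JGT02 400 over DEX.

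The soleus (SO), a slow postural muscle, gave the same contrast in 8 libraries, 4 of JGT02 400 (mice 2 to 5) and 4 of DEX. The difference between the muscles was tested in 1 fit over 83 libraries of all 18 groups. Values for SO come from that fit, whereas values for GA are those of the fit of 42 GA libraries. The SE of the 2 muscles therefore do not combine to the SE of the difference. JGT02 400 mouse 1 of SO was kept out, as it stood apart in earlier results of these data. The response differed between SO and GA for 2518 of 15142 genes, or 16.6%, with 1731 higher (11.4%) and 787 lower (5.2%) in SO. The count was 1641 without SO DEX mouse 4, 1650 without SO JGT02 400 mouse 5 and 406 with all 86 libraries. It was 940 with a term for 3 stretches of the listed order of the libraries, a grouping taken from earlier results of these data, while every library's title names the same batch.

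Zbtb16, Ppp1r3c and Lpin1, which were lower in GA, did not pass in SO (adjusted p = 0.403, 0.301 and 0.258). Zbtb16 was at log2 0.16 ± 0.14 in SO and -0.85 ± 0.14 in GA (difference 1.01 ± 0.19, adjusted p = 0.000199). Ppp1r3c was at log2 -0.26 ± 0.19 in SO and -1.64 ± 0.18 in GA (difference 1.38 ± 0.26, adjusted p = 0.000199). Lpin1 was at log2 0.14 ± 0.10 in SO and -0.43 ± 0.06 in GA (difference 0.57 ± 0.13, adjusted p = 0.00168). Tsc22d3, which did not pass in GA, was at log2 0.59 ± 0.12 in SO (difference 0.62 ± 0.16, adjusted p = 0.00487), and Ddit4 at log2 -0.49 ± 0.18 in SO (difference -1.06 ± 0.26, adjusted p = 0.00287). Gpam was at log2 1.42 ± 0.22 in SO and 0.35 ± 0.08 in GA (difference 1.07 ± 0.29, adjusted p = 0.00616). Ppard was at log2 0.26 ± 0.07 in SO and -0.25 ± 0.06 in GA (difference 0.52 ± 0.10, adjusted p = 0.000252). Those 7 differences passed with any 1 library left out, and those of Tsc22d3 and Gpam also with all 86 libraries in the fit.

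Some matrix and slow-fibre genes had a lower value in SO. Col4a1 was at log2 -1.05 ± 0.13 in SO and -0.48 ± 0.07 in GA (difference -0.57 ± 0.18, adjusted p = 0.0189), a call that ended without SO DEX mouse 4 or SO JGT02 400 mouse 5. Myh7 was at log2 0.04 ± 0.23 in SO and 1.10 ± 0.26 in GA (difference -1.06 ± 0.32, adjusted p = 0.0165), a call that ended without GA DEX mouse 2 or GA JGT02 400 mouse 1. Mt2 was at log2 -3.76 ± 0.58 in SO and -1.82 ± 0.33 in GA, and that difference did not pass (-1.93 ± 0.77, adjusted p = 0.0724). For Mir22hg (difference -0.28 ± 0.16, adjusted p = 0.227), Arrdc3 (difference -0.23 ± 0.23, adjusted p = 0.534) and Klhl33 (difference 0.38 ± 0.27, adjusted p = 0.36) the difference between the muscles did not pass. Each was above 0 in both: Mir22hg at log2 0.55 ± 0.11 in SO, Arrdc3 at 0.56 ± 0.16 and Klhl33 at 1.14 ± 0.21.

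**Figure D5:**
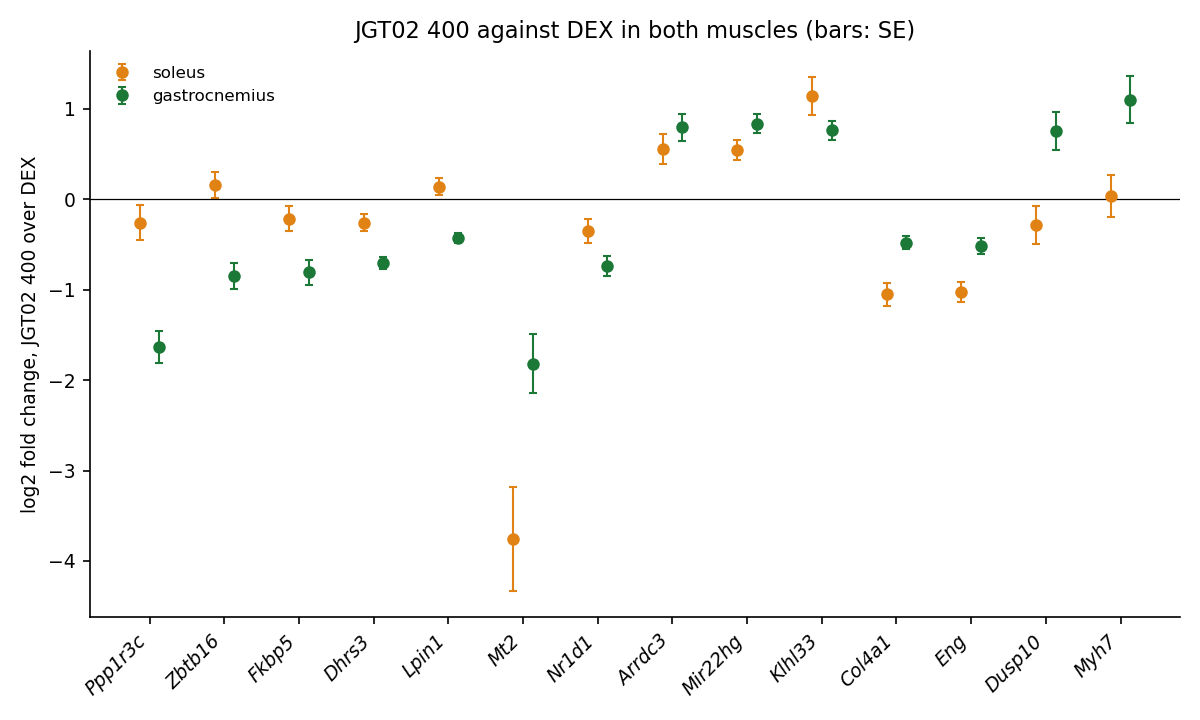
Log2 fold change of JGT02 400 over DEX for 14 genes in SO (orange) and GA (green), with bars for the SE. Ppp1r3c, Zbtb16, Fkbp5, Dhrs3 and Lpin1 lie lower in GA than in SO, Arrdc3, Mir22hg and Klhl33 are above 0 in both, and Dusp10 and Myh7 are above 0 in GA and near or below 0 in SO.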

How the data were processed

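Gastrocnemius and soleus of single mice were sequenced as strand-specific, paired 100-base libraries on an MGI sequencer, per the labels' protocols. The authors deposited RSEM expected counts for each gene. Per the submitters' processing notes, the tools were RSEM 1.3.3 and STAR 2.7.3a, with Trim Galore 0.6.5 and FastQC 0.11.9, and the build GRCm38. The annotation and the strand setting of the counting are not given in the sources used here. Of 122 genes looked up in GENCODE vM21, 39 have exons of another gene over theirs on the opposite strand, Nr1d1 among them. Their reads may be mixed if counting ignored strand. Of the 42807 genes listed, 18.5% of the non-zero values were not whole, and all were rounded. Groups follow the sample titles. Replicates are separate mice. The protocol speaks of fewer groups than the 18 that the titles form.

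edgeR 4.0.16 (limma 3.58.1, R 4.3.3) was run with filterByExpr, TMM scaling and the quasi-likelihood test, with Benjamini-Hochberg adjustment over all genes tested and a threshold of 0.05. One fit held 42 GA libraries (14428 genes) and a second 83 libraries of both muscles (15142 genes), without SO JGT02 100 mouse 5 as well. ± is the SD for CPM and the SE for log2 values. Intervals are at 95%. Words of 31 bases were counted over the transcripts of GENCODE vM21, where Orm1 shares 27.5% of its words with others. Figures were drawn in Python 3.11.15 with matplotlib 3.10.9. On simulated counts for JGT02 400 against DEX (14366 genes) 85.1% of genes changed 1.5-fold passed, and 0.078% of unchanged genes. The 1.5-fold change was the smallest simulated, and changed genes averaged at least 1 CPM. The counts were drawn with the spread estimated in the fit of 42 GA libraries, so they cannot test that spread. Pairs of libraries within a group were checked in GA JGT02 400, DEX, non-treated, JGT02 100 and JGT03 400. Every such pair differed by more than sampling noise, and other groups were not checked.

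Named were the 12 largest rises and 12 largest falls among genes that passed, averaged at least 5 CPM and did not overlap, a panel of 18 genes, and up to 4 passing genes per direction from each of 39 gene lists. One gene that the rule selects is not reported here. In other comparisons up to 5 genes per direction were named. The libraries compared, the lists and the panel were chosen with earlier results of these data known. Alternatives were other size factors, no filter, DESeq2 1.42.0, other sets of libraries, a block for mouse number and leaving out each library.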

Additional observations from a re-analysis of the deposited data

Results flagged for a closer look

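In 14 of 224 gene and group pairs 1 mouse lay far from the other mice of its group, where chance marks about 1 in 20. DEX mouse 4 accounted for 4 of them, with low Klf15 (10.6 CPM) and high Igf1 (52.2 CPM), Asb5 (247 CPM) and Eng (58.9 CPM). JGT02 400 mouse 1 accounted for another 4, with high Myl2 (433 CPM), Myl3 (359 CPM) and Fabp3-ps1 (9.81 CPM) and low Tbc1d1 (39.9 CPM). The others were Lpin1 in JGT02 400 mouse 3 (274 CPM, high), Srebf1 in JGT02 400 mouse 3 (227 CPM), Ubb in JGT02 400 mouse 2 (1002 CPM), Zfp503 in JGT02 400 mouse 4 (36.3 CPM), Nr3c1 in DEX mouse 1 (108 CPM, high) and Aqp7 in DEX mouse 2 (8.12 CPM, low).

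The response to JGT02 400 over DEX differed between SO and GA for 2518 genes. Among the genes named, the response in SO minus that in GA was above 0 in Ppp1r3c (1.38), Gpam (1.07), mt-Atp8 (1.06), Zbtb16 (1.01), Tsc22d3 (0.62), Fkbp5 (0.60), Lpin1 (0.57), Ppard (0.52), Dhrs3 (0.45), Myf6 (0.43), Gapdh (0.42), Epm2a (0.39), Opa1 (0.38), Fxyd1 (0.35), Shmt2 (0.30), Optn (0.29), Fkbp4 (0.26) and Abcc9 (0.25) on the log2 scale. It was below 0 in Ddit4 (-1.06), Myh7 (-1.06), Dusp10 (-1.03), Myl3 (-0.80), Col4a1 (-0.57), Nos3 (-0.53), Col4a2 (-0.51), Eng (-0.51), Timp3 (-0.43) and Kcnj8 (-0.41).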

How the results depend on the processing

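In JGT02 400 over DEX no passing gene named by the rule turned its direction under the alternatives tried. Turns of genes that passed in neither fit were not counted. The balance of higher and lower genes did turn. For JGT02 400 over DEX, with 442 higher and 381 lower, more genes were lower than higher without a filter (284 higher, 316 lower), without DEX mouse 1 (428 and 440), 2 (216 and 234), 3 (356 and 374) or 4 (302 and 309), and without JGT02 400 mouse 5 (378 and 413). The 823 genes of JGT02 400 over DEX became 117 with GA JGT02 100 mouse 1 in the fit, 525 without JGT02 400 mice 1 and 2 (276 higher, 249 lower), 284 with the 2 groups alone, and 450 to 868 with 1 library left out. They were 822 with other size factors, 600 without a filter, 886 in DESeq2 and 858 with mouse number as a replicate block. Against JGT02 100 the 163 genes (100 higher, 63 lower) became 2352 with that mouse in the fit (387 higher, 1965 lower), 97 with the 2 groups alone, 253 in DESeq2, 141 with the block and 69 to 173 with 1 library left out. Against non-treated mice the 4461 genes became 1730 with that mouse, and 3873 to 4187 with 1 library left out, and for DEX over non-treated mice the 3811 became 1214 and 3263 to 3645. Against JGT03 400 the 2 genes became 1 without a filter, 1 with the block, 1 without JGT02 400 mice 1 and 2, 0 with that mouse, 0 with the 2 groups alone, 14 in DESeq2 and 0 to 2 with 1 library left out. For SO minus GA the 2518 genes became 406 with all 86 libraries, 940 with a term for 3 stretches of the listed order (a grouping that no label gives), 1883 with the animal as a block (chosen after seeing the data, and assuming that equal numbers mark 1 animal), 2575 with mouse number as a replicate block and 1641 to 3002 with 1 library left out, where 1641 was without SO DEX mouse 4. The cause was not tested. A lone library of a group is assumed to vary like those of the other groups. Mice share only a number in the labels: between JGT02 400 and DEX, same-numbered mice correlated at -0.017 to 0.078 over 4 pairs, and 1 of the 4 correlated best with its own number. Of 100 named calls 100 held in DESeq2, 98 with other size factors, 97 with the block, 85 without a filter, 66 without JGT02 400 mice 1 and 2, 55 with the 2 groups alone and 21 with GA JGT02 100 mouse 1 in the fit. Calls that ended without JGT02 400 mice 1 and 2 included those of Trim63, Ddit4, Foxo6, Epm2a, Gapdh, Hadhb, Lpl, Acadvl, Junb, Zfp36, Egr1, Ednrb, Opa1 and Eya1.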

Other observations

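Nerve-muscle and developmental genes are read beside the 5.7% of all genes that passed (3.06% higher and 2.64% lower). Of 19 genes of the acetylcholine receptor and denervation, Dach2, a repressor that falls in denervated muscle, passed at 2.88 ± 0.818 CPM with JGT02 400 and 1.91 ± 0.258 CPM with DEX (log2 fold change 0.58 ± 0.18, adjusted p = 0.0392), and its call ended with 6 of 9 libraries left out in turn (adjusted p = 0.0802 to 0.136). Of 18 myogenic genes 2 were lower. Myf6, a myogenic factor of mature fibres, had 48.1, 48.0, 44.9, 44.7 and 48.9 CPM with JGT02 400 and 49.1, 55.0, 56.4 and 61.6 CPM with DEX (log2 fold change -0.24 ± 0.06, adjusted p = 0.0185), and its call ended without DEX mouse 4 (adjusted p = 0.0977). Eya1, a coactivator of fast-fibre genes, was at log2 -0.31 ± 0.08 (adjusted p = 0.0125), and its call ended without JGT02 400 mice 1 and 2.

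Of 27 genes of calcium handling and excitation, Fxyd1, a regulator of the sodium pump, was lower at 239 ± 14.6 CPM with JGT02 400 and 274 ± 12.4 CPM with DEX (log2 fold change -0.20 ± 0.04, adjusted p = 0.00365). Atp1b1, a subunit of that pump, was higher (log2 0.40 ± 0.11, adjusted p = 0.0181), a call that ended without any 1 of DEX mice 2 and 4 and JGT02 400 mouse 1 (adjusted p = 0.0508 to 0.084). Of 28 genes of mitochondrial biogenesis and sirtuins, Opa1, which fuses inner mitochondrial membranes, was higher (log2 0.15 ± 0.04, adjusted p = 0.0153), and its call ended without DEX mouse 2 (adjusted p = 0.141). Of 49 nuclear genes of oxidative phosphorylation none passed in edgeR, with 9 at an unadjusted p under 0.05, 1 passed in DESeq2, and without DEX mouse 4, 5 were higher in edgeR. Of 48 cytosolic ribosomal protein genes Rps24 was lower (log2 -0.23 ± 0.06, adjusted p = 0.00925), and its call ended without DEX mouse 3 (adjusted p = 0.0628).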
